A study of Mus musculus with 12 samples.

Results

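The BCL2 family decides at the mitochondrion whether a cell under stress lives or dies. Transcript levels of 10 of its genes were followed in mouse pancreatic islets, chosen by symbol from an islet table of 24078 transcripts: the survival genes Bcl2, Bcl2l1 and Mcl1, the effectors Bax and Bak1, and the BH3-only genes Bid, Bad, Bbc3, Bcl2l11 and Pmaip1. All 10 were in the table and all 10 passed the filter on low values, 0.1 RPKM or more on average in the 12 animals. RPKM scales reads to both transcript length and library size, so it is a level per length. Genes can be set side by side on it only roughly, since the lengths used are not given and the RNA was amplified.

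Islets came from 3 genotypes with 4 animals each. WT mice were wild-type, Wfs1HZ mice were heterozygous and Wfs1KO mice homozygous for Wfs1tm1Koks, an allele in which a LacZ cassette takes the place of most of exon 8, so that a truncated fusion protein is still made. Wfs1 encodes wolframin, a membrane protein of the endoplasmic reticulum that is lost in Wolfram syndrome, in which beta cells die. All animals were male F2 hybrids of 129S6/SvEvTac and C57BL/6, 5 to 6 months old, and no agent was given to any group. Their islets were freed with collagenase, picked by hand and kept overnight in high glucose medium before RNA was taken, one library per animal. Every cell of the mutants carries the allele, not beta cells alone, and the RNA is that of whole islets, so fewer cells of a type and less RNA per cell cannot be told apart.

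In healthy cells the survival proteins hold BAX and BAK in check on the outer mitochondrial membrane. Stress signals raise or activate BH3-only proteins, which occupy the survival proteins or engage BAX and BAK directly, and the effectors then open the membrane, release cytochrome c and start the caspases. In beta cells exposed to endoplasmic reticulum stress, BH3-only genes such as Bbc3 and Bcl2l11 are known to be switched on at the transcript level, while BID, BAD and MCL1 are governed largely at the protein level, which these data do not show.

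The targeted gene followed the labels in its means. Wfs1 averaged 28.6 ± 3.83 RPKM (SD, n = 4) in WT, 11.1 ± 5.59 in Wfs1HZ and 4.4 ± 1.83 in Wfs1KO islets. No mutant animal reached the lowest WT animal, but Wfs1HZ and Wfs1KO animals overlapped. The lowest Wfs1HZ animal had 4.69 RPKM and the highest Wfs1KO animal 6.61, so Wfs1 did not tell every heterozygote from a homozygote. The allele keeps exons that could give reads, and their part in these Wfs1 values was not tested. The reads behind the RPKM, estimated from the values and called depth here, ran from 2170000 to 9507000 per library. The paper reports far more reads per sample, so the estimate is not the number of reads sequenced. A pair of heterozygote libraries stood apart. Wfs1HZ replicate 2, the shallowest by this estimate, had a median of 3.37 RPKM over all transcripts. Wfs1HZ replicate 4 had 0.75, with 0.99 to 1.73 in the other 10. Among the 10 BCL2 family genes, the highest of the 12 values fell in Wfs1HZ replicate 2 for 5 genes and the lowest in Wfs1HZ replicate 4 for 6. Summed beta cell markers (8 genes) ran from 12502 to 179781 RPKM over the 12 animals and summed acinar markers (9 of 10 genes listed) from 7889 to 289387, so every library held endocrine and exocrine RNA. Mafa, a beta cell factor, was listed at 0 in all 4 WT animals. Endothelial and stromal marker sums (5 genes each) separated 2 genotypes: endothelial sums were 53.3 to 63.0 RPKM in Wfs1KO and 18.4 to 48.7 in WT, and stromal sums were 55.8 to 130.5 and 18.2 to 54.5. In Wfs1HZ they spanned 19.1 to 91.1 and 11.0 to 352.3. Immune marker sums (6 of 7 genes listed) overlapped, with 16.2 to 67.7 RPKM in Wfs1KO and 30.7 to 146.1 in WT. The part of these other cells in any value below was not tested.

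**Figure D1:**
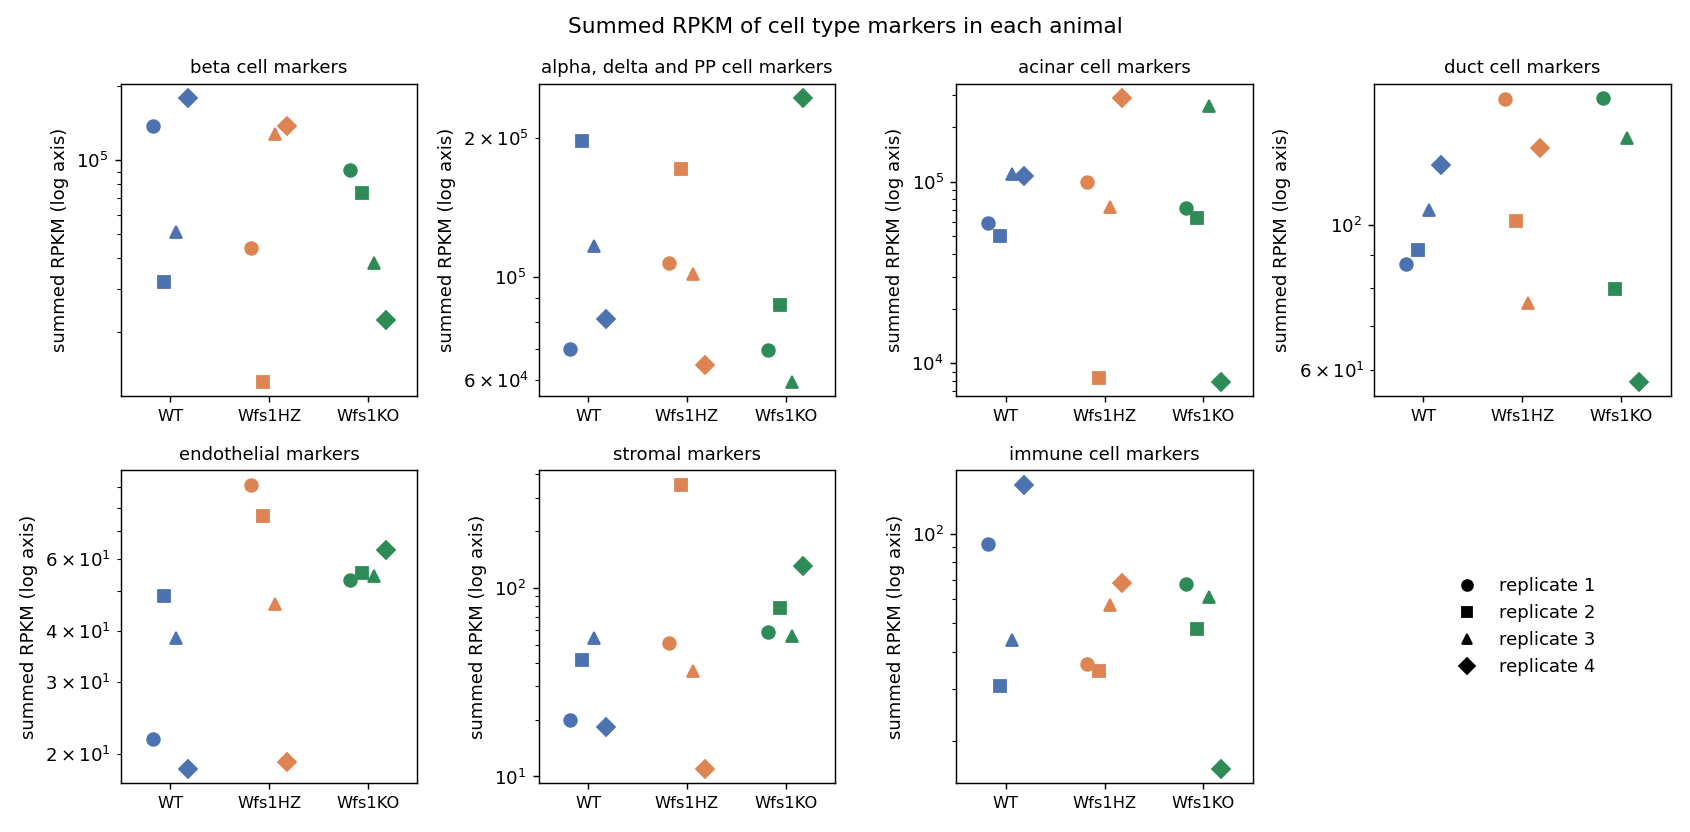
Summed RPKM of the marker genes of 7 kinds of cell in each animal, on log axes, by genotype, with 1 symbol per replicate number. Endothelial and stromal sums of all 4 Wfs1KO animals sit above those of all 4 WT animals, and the acinar sum is lowest in Wfs1HZ replicate 2 and Wfs1KO replicate 4.

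Islets made far more Mcl1 than Bbc3 transcript per length. Over the 12 animals the mean level was 60.3 ± 13.3 RPKM (SD) for Mcl1, 37.1 ± 11.4 for Bax, 25.1 ± 6.21 for Bcl2l1, 20.4 ± 6.41 for Bcl2l11 and 16.9 ± 3.36 for Bak1. Below these stood Bid with 11.6 ± 3.87 RPKM, Bad with 5.70 ± 1.46, Pmaip1 with 3.67 ± 4.71, Bcl2 with 3.25 ± 1.54 and Bbc3 with 1.91 ± 1.60. In every neighbouring pair of that order the ranges overlapped, yet within an animal Mcl1 exceeded Bax and Bcl2 exceeded Bbc3 in 12 of 12. Bax exceeded Bcl2l1 in 8 of 12 animals, Bcl2l1 exceeded Bcl2l11 in 9, and Pmaip1 exceeded Bcl2 in only 4. Among all transcripts of WT islets Mcl1 stood at percentile 97.3, Bax at 93.9 and Bcl2l1 at 91.0, and Bbc3 at 49.8. The genes also differed in how much animals varied. The highest of the 12 values was 19.8 times the lowest for Bbc3 and 18.3 times for Pmaip1, and 2.11 to 4.66 times for the other 8.

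**Figure D2:**
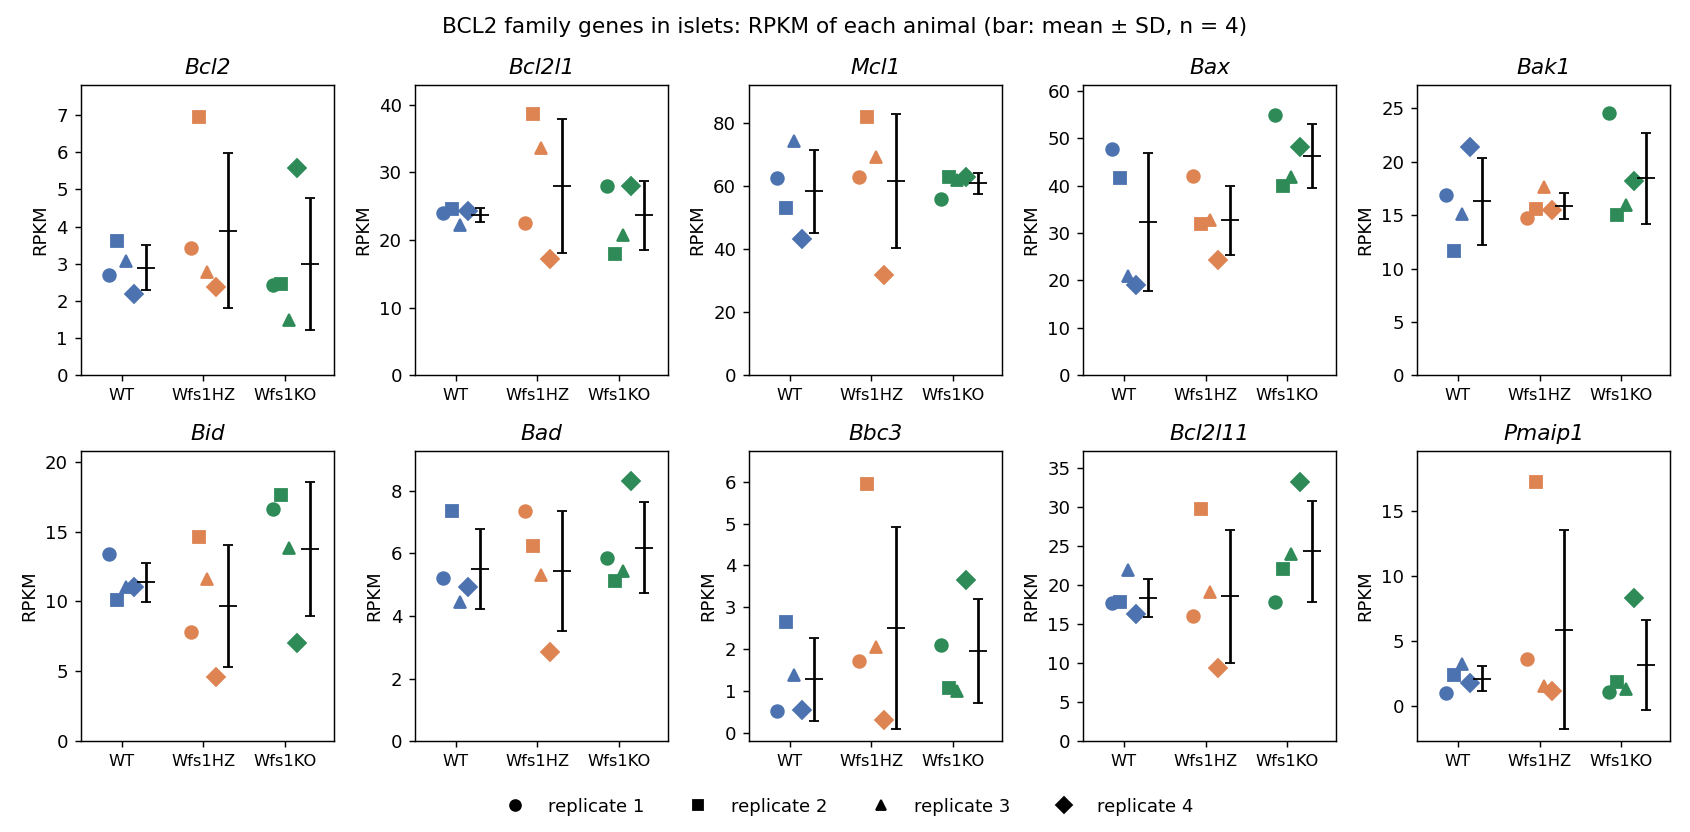
RPKM of each of the 10 BCL2 family genes in each animal, by genotype, with 1 symbol per replicate number and the mean ± SD of 4 animals as a black bar. The 3 genotypes overlap for every gene, the 4 WT values of Bcl2l1 lie between 22.2 and 24.6 RPKM, and Wfs1HZ replicate 2 holds the highest value of 5 genes.

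Whether loss of Wfs1 shifts the BCL2 family was asked by setting Wfs1KO against WT. None of the 10 genes passed the adjusted threshold: limma with Benjamini-Hochberg adjustment gave adjusted p = 0.879 to 0.998, and it called 3 of 21701 transcripts, or 0.0138%. At an unadjusted p under 0.05, limma called 0 of the 10 genes and 5.64% of all transcripts. No gene separated the 4 Wfs1KO from the 4 WT animals, as 2.74% of all transcripts did. By sign, 8 of 10 estimates were higher in Wfs1KO with a median log2 fold change of 0.19 on the log2(RPKM + 0.1) scale, beside a median of 0.07 over all transcripts, of which 12553 of 21701 were higher.

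The 3 survival genes showed the smallest differences. Bcl2l1 at chr2:152780668-152831728 (mm10, minus strand) encodes BCL-XL, which binds and restrains BAX. Its levels were 23.9, 24.6, 22.2 and 24.3 RPKM in the 4 WT animals and 28.1, 17.9, 20.8 and 28.0 in the 4 Wfs1KO animals. WT animals sat close together inside the wider Wfs1KO range, with 2 Wfs1KO animals above and 2 below them. The log2 fold change was -0.03 (SE 0.18, 95% interval -0.44 to 0.38, limma adjusted p = 0.998). Mcl1 at chr3:95658788-95663176 encodes a short-lived survival protein that also sequesters BIM and NOXA. It was 62.78, 53.04, 74.22 and 43.37 RPKM in WT and 56.00, 62.87, 62.04 and 62.86 in Wfs1KO islets, so here the Wfs1KO animals were the tighter group and lay within the WT range. Its difference of 0.09 (SE 0.19, 95% interval -0.33 to 0.51) turned to -0.01 under quantile normalization. Bcl2 at chr1:106538178-106714274, the founding survival gene, was 2.69, 3.61, 3.08 and 2.20 RPKM in WT and 2.43, 2.46, 1.49 and 5.56 in Wfs1KO. A single high animal, Wfs1KO replicate 4, set the Wfs1KO mean of 2.99 ± 1.77 RPKM. The log2 fold change was -0.09 (SE 0.40, limma adjusted p = 0.995), -0.44 without that animal and 0.17 without Wfs1KO replicate 3. Of its exon bases, 6.1% lie opposite D630008O14Rik.

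Bax, whose protein opens the outer membrane, was the member with the lowest p. It lies at chr7:45461697-45466898 on the minus strand. Its levels were 47.8, 41.6, 20.9 and 19.0 RPKM in WT and 54.8, 39.9, 41.9 and 48.1 in Wfs1KO islets. The WT animals formed a high and a low pair, the Wfs1KO animals were all near the high pair, and 2 of them were above every WT animal. The means were 32.3 ± 14.5 and 46.2 ± 6.73 RPKM, a log2 fold change of 0.62 (SE 0.31, 95% interval -0.08 to 1.32, limma adjusted p = 0.879). The exact two-sided permutation test gave p = 0.171, where 4 against 4 animals can give no less than 0.029. Leaving out WT replicate 1 gave 0.85 and WT replicate 2 gave 0.78, both with a limma unadjusted p under 0.05, while leaving out WT replicate 4 gave 0.40. The second effector, Bak1 at chr17:27019810-27029009, was 16.9, 11.7, 15.2 and 21.4 RPKM in WT and 24.5, 15.0, 16.0 and 18.2 in Wfs1KO. Its groups overlapped almost wholly, with a log2 fold change of 0.19 (SE 0.23, adjusted p = 0.946 by limma). Both effectors share exon bases with another gene: 12.2% of Bax with Gm45808 on the same strand and 25.5% of Bak1 with Ggnbp1 on the opposite strand. Reads in the Bax stretch cannot be assigned by strand, and those in the Bak1 stretch only if strand was used in counting.

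Bax, Bbc3 and Pmaip1 are textbook targets of p53, and the letters before the start sites of the first 2 are shown to let a reader place known motifs. Windows from 250 bases before to 50 after the start, from RefSeq on GRCm38.p6, were searched for 9 of the 10 genes, 15 windows in all. Pmaip1 was left out by choice, so the counts below do not cover it. The motifs and the stretches shown were chosen after the expression values were seen. The p53 half-site, searched by its name's consensus on both strands, had 1 match in these windows, in Bax at base -201, while 8.36% of all 32851 promoter windows hold one. CACGTG, the E-box read by MYC and its partners, was in 2 windows against 7.15% of all, in Bax at -9 and 36 and in Bbc3 at -64. GGGCGG, the GC box, was in 10 of 15 windows and in 7 of 9 genes (35.7% of all windows), CCAAT in 4 windows (37.4%), and TATAAA in none (13.6%). A match describes letters and is no evidence of binding. Capitals mark the p53 half-site (first in Bax) and CACGTG in the Bax bases at chr7:45466899-45467148 (minus strand) and in 30 bases of a Bbc3 window at chr7:16310355-16310384 (plus strand), both 5′ to 3′:
Bax: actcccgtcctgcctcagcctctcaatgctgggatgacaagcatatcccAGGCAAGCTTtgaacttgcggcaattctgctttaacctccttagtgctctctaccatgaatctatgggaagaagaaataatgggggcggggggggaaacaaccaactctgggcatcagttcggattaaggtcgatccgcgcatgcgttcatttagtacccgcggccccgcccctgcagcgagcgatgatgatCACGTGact
Bbc3: gcggggcgggcgCACGTGgcggcgtcgagg

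All 5 BH3-only genes had estimates above 0 in Wfs1KO against WT, with a median log2 fold change of 0.20 (4 or 5 of 5 above 0 over all alternative settings), and each fell short of the test. The median was 0.51 without Wfs1KO replicate 1, 0.43 without WT replicate 3, 0.37 without Wfs1KO replicate 3 and 0.31 without WT replicate 2. Its lowest value was 0.16, under quantile normalization. In the same 4 leave-outs the median over all transcripts was 0.04, 0.06, 0.18 and 0.13. Bcl2l11 at chr2:128126038-128162547 encodes BIM, which binds every survival protein. It was 17.7, 17.8, 21.9 and 16.2 RPKM in WT and 17.9, 22.1, 24.0 and 33.2 in Wfs1KO islets. In 15 of the 16 pairings of a Wfs1KO with a WT animal the Wfs1KO value was higher, the exception being WT replicate 3 above Wfs1KO replicate 1. The log2 fold change was 0.37 (SE 0.21, 95% interval -0.10 to 0.84, limma adjusted p = 0.879), and the exact two-sided permutation test gave p = 0.057. Without Wfs1KO replicate 1 it was 0.51 at a limma unadjusted p under 0.05, and without Wfs1KO replicate 4 it was 0.21.

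Bbc3 at chr7:16308393-16318205 encodes PUMA, which engages all survival proteins. It was 0.52, 2.64, 1.38 and 0.55 RPKM in WT and 2.10, 1.06, 1.00 and 3.66 in Wfs1KO. WT replicate 2 exceeded 3 of the 4 Wfs1KO animals. By the depth estimate these values rested on about 6.29 to 42.4 reads per WT library and 11.7 to 36.2 per Wfs1KO library. The log2 fold change of 0.67 had an SE of 0.61 (95% interval -0.71 to 2.05). Pmaip1, which encodes NOXA, a partner of MCL1, was 0.94, 2.34, 3.20 and 1.75 RPKM in WT and 1.05, 1.82, 1.30 and 8.28 in Wfs1KO. Wfs1KO replicate 4 alone stood above the WT range, and the log2 fold change of 0.19 (SE 0.65) was -0.45 without it. In that library the acinar, duct and immune marker sums were the lowest of all 12 and the alpha, delta and PP cell sum the highest of all 12, at 244215 RPKM. Its beta cell sum was the lowest and its stromal and endothelial sums the highest of the 4 Wfs1KO animals. The part of any of these in the Pmaip1 value was not tested.

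Bid at chr6:120891930-120916853, whose protein is cut by caspase 8 and links death receptors to mitochondria, was 13.4, 10.1, 11.0 and 11.0 RPKM in WT and 16.6, 17.6, 13.8 and 7.02 in Wfs1KO. Thus 3 Wfs1KO animals were above every WT animal and replicate 4 was below them all. The log2 fold change was 0.20 (SE 0.29), and 0.49 without replicate 4 at a limma unadjusted p under 0.05. Bad at chr19:6941861-6951899, whose protein is held inactive by growth factor signalling, was 5.22, 7.34, 4.46 and 4.92 RPKM in WT and 5.85, 5.12, 5.43 and 8.31 in Wfs1KO, a log2 fold change of 0.17 (SE 0.24) between overlapping groups. Of the exon bases, 17.7% of Bid lie opposite Bcl2l13 and 20.5% of Bad opposite Gpr137.

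**Figure D3:**
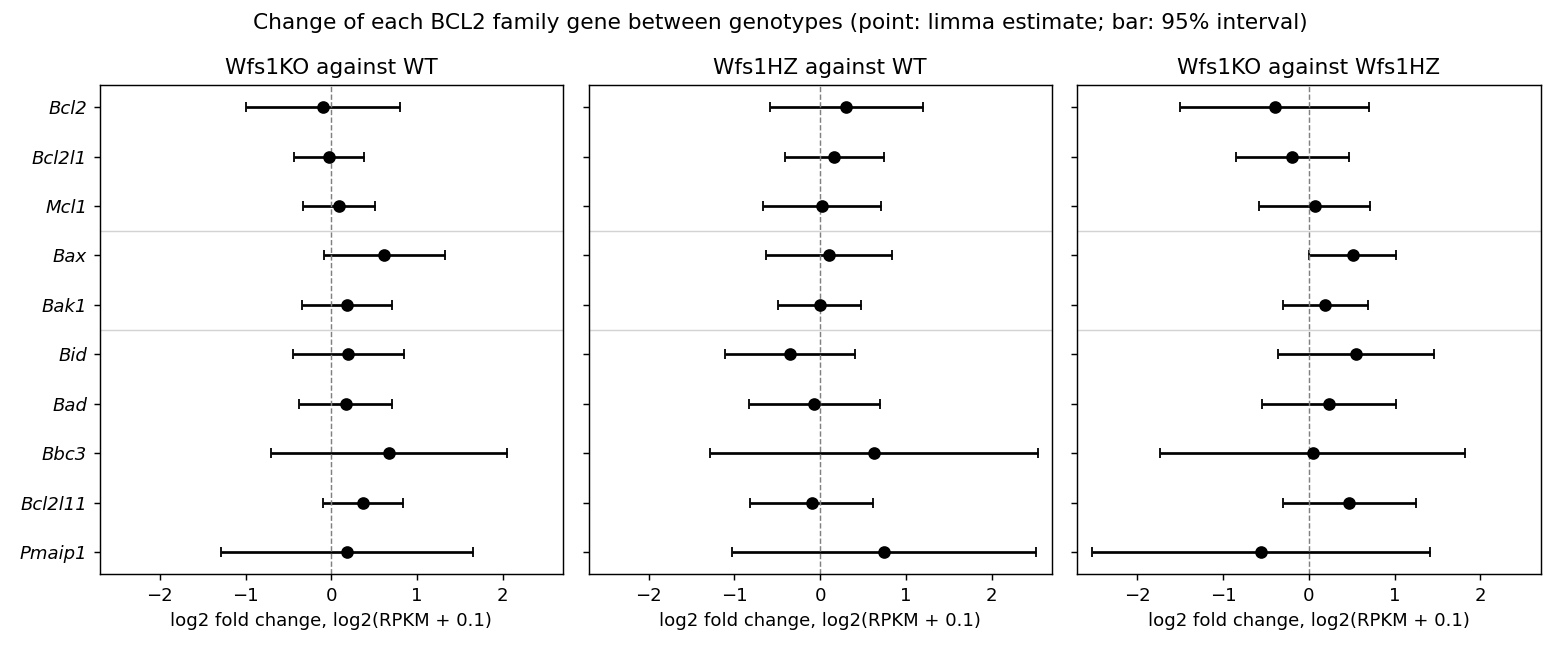
Log2 fold change of each of the 10 genes on the log2(RPKM + 0.1) scale in the 3 comparisons, as the limma estimate (point) with its 95% interval (bar). Every interval spans 0 except that of Bax in Wfs1KO against Wfs1HZ, whose lower end rounds to 0.00, and the intervals of Bbc3 and Pmaip1 are the widest in each comparison.

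A single mutant copy was followed by setting Wfs1HZ against WT. No gene passed: limma gave adjusted p = 1 for all 10, and called 0 transcripts (0%). At an unadjusted p under 0.05 it called 0 of the 10 genes and 2.35% of transcripts, and no gene separated the groups (1.66% of transcripts did). Estimates were higher for 6 of 10 genes, with a median of 0.07 beside 0.04 over all transcripts. That count rested on the heterozygote libraries that stood apart: it was 2 of 10 without Wfs1HZ replicate 2 and 9 of 10 without Wfs1HZ replicate 4. The median over all transcripts moved the same way in these fits, to -0.19 and 0.25.

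Several genes varied widely among the heterozygotes. Pmaip1 was 3.59, 17.2, 1.47 and 1.12 RPKM in the 4 Wfs1HZ animals, Wfs1HZ replicate 2 being several times above any other animal except Wfs1KO replicate 4. Its log2 fold change was 0.74 (SE 0.80) and -0.05 without that library. Bbc3 was 1.71, 5.95, 2.05 and 0.30 RPKM, and its log2 fold change of 0.63 had an SE of 0.85. By the depth estimate the last value rested on about 2.69 reads, fewer than the 3 taken as the floor. Bcl2 was 3.43, 6.94, 2.79 and 2.37 RPKM and Bcl2l11 was 16.0, 29.8, 19.1 and 9.33, each with replicate 2 on top and replicate 4 at the bottom. Mcl1 was likewise highest in replicate 2 and lowest in replicate 4, with 63.0, 82.0, 69.2 and 31.9 RPKM, as did Bcl2l1, with 22.6, 38.7, 33.6 and 17.2. Bid was 7.83, 14.6, 11.6 and 4.61 RPKM and had the lowest estimate, -0.35 (SE 0.34, 95% interval -1.11 to 0.41). Bad was 7.36, 6.23, 5.30 and 2.86 RPKM (log2 fold change -0.07, SE 0.34). For the effectors replicate 2 was not the highest, and the SD of Bax and Bak1 was smaller in Wfs1HZ than in WT. Bax was 42.0, 31.9, 32.8 and 24.2 RPKM and Bak1 14.7, 15.6, 17.6 and 15.5, with log2 fold changes of 0.11 (SE 0.33) and -0.01 (SE 0.22). Estimates for the survival genes were 0.31 for Bcl2, 0.17 for Bcl2l1 and 0.02 for Mcl1, with SEs of 0.40, 0.26 and 0.31.

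Homozygotes were also set against heterozygotes, a comparison that shares its animals with the ones above. Again limma gave adjusted p = 1 for all 10 genes and called 0 transcripts (0%). At an unadjusted p under 0.05 it called 1 of the 10 genes, Bax, and 2.45% of transcripts, and no gene separated the groups (1.43% did). Bax averaged 46.2 ± 6.73 RPKM in Wfs1KO and 32.7 ± 7.28 in Wfs1HZ, a log2 fold change of 0.51 (SE 0.23, 95% interval 0.00 to 1.02). The Wfs1KO value was higher in 14 of 16 pairings, and the exact two-sided permutation test gave p = 0.086. Leaving out single animals gave 0.38 to 0.64, and the unadjusted call held only without Wfs1HZ replicate 1 or Wfs1KO replicate 2. It was also lost with the filter raised to 1 RPKM, under median-of-ratios (limma unadjusted p = 0.064) or quantile scaling (0.065), with all 12 animals in a single fit (0.1003) and with the replicate block (0.071). Bid and Bcl2l11 had estimates of 0.55 (SE 0.41) and 0.47 (SE 0.35). Without Wfs1HZ replicate 2 Bcl2l11 stood at 0.73 with a limma unadjusted p under 0.05, and without Wfs1HZ replicate 4 at 0.18. Of the 3 survival genes, Bcl2 and Bcl2l1 had estimates below 0, -0.40 (SE 0.50) and -0.20 (SE 0.30), and Mcl1 stood at 0.07 (SE 0.29). Pmaip1 was at -0.56 (SE 0.89) and at 0.23 without Wfs1HZ replicate 2.

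Because scaling between libraries cancels inside an animal, pairs of genes were also compared within each animal, as a description. Bax exceeded Bcl2l1 by 0.99, 0.76, -0.09 and -0.35 on the log2 scale in the 4 WT animals, by 0.89, -0.28, -0.04 and 0.50 in Wfs1HZ and by 0.96, 1.15, 1.00 and 0.78 in Wfs1KO. All 4 Wfs1KO animals thus lay in a narrow band that the upper WT and Wfs1HZ animals also reached. The mean differences were 0.33 ± 0.65 (SD, n = 4), 0.27 ± 0.53 and 0.98 ± 0.15. Bax against Bcl2 gave 3.34 ± 0.60, 3.14 ± 0.65 and 4.05 ± 0.71 with overlapping animals. Bbc3 against Mcl1, the BH3-only gene of lowest level and the survival gene of highest, gave -5.66 ± 1.01, -5.06 ± 1.05 and -5.08 ± 0.86, also overlapping.

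The 3 survival genes together made up 46.6%, 46.5%, 56.1% and 48.3% of the summed RPKM of the 10 genes in WT, 48.8%, 51.3%, 54.0% and 47.0% in Wfs1HZ and 41.3%, 44.8%, 44.9% and 43.2% in Wfs1KO. Every Wfs1KO animal was below every animal of the other 2 genotypes, with means of 49.4 ± 4.55%, 50.3 ± 3.03% and 43.5 ± 1.69% (SD, n = 4). This share was computed after the values of the genes had been seen and carries no test. It leaves out Bcl2l2, a survival gene outside the 10 that averaged 31.1 RPKM. With Bax left out of the sum it was 60.6 ± 3.48% in WT, 61.9 ± 2.78% in Wfs1HZ and 56.5 ± 1.22% in Wfs1KO, and the Wfs1KO range of 55.0 to 57.8% then overlapped the WT range of 55.6 to 63.6% while staying below the Wfs1HZ range of 58.8 to 64.9%. The effectors took 28.1%, 28.1% and 32.0% of the sum and the BH3-only genes 22.5%, 21.6% and 24.5%, with overlapping animals in both. Endothelial and stromal marker sums separated Wfs1KO from WT in the same animals, and their part in the share was not tested.

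**Figure D4:**
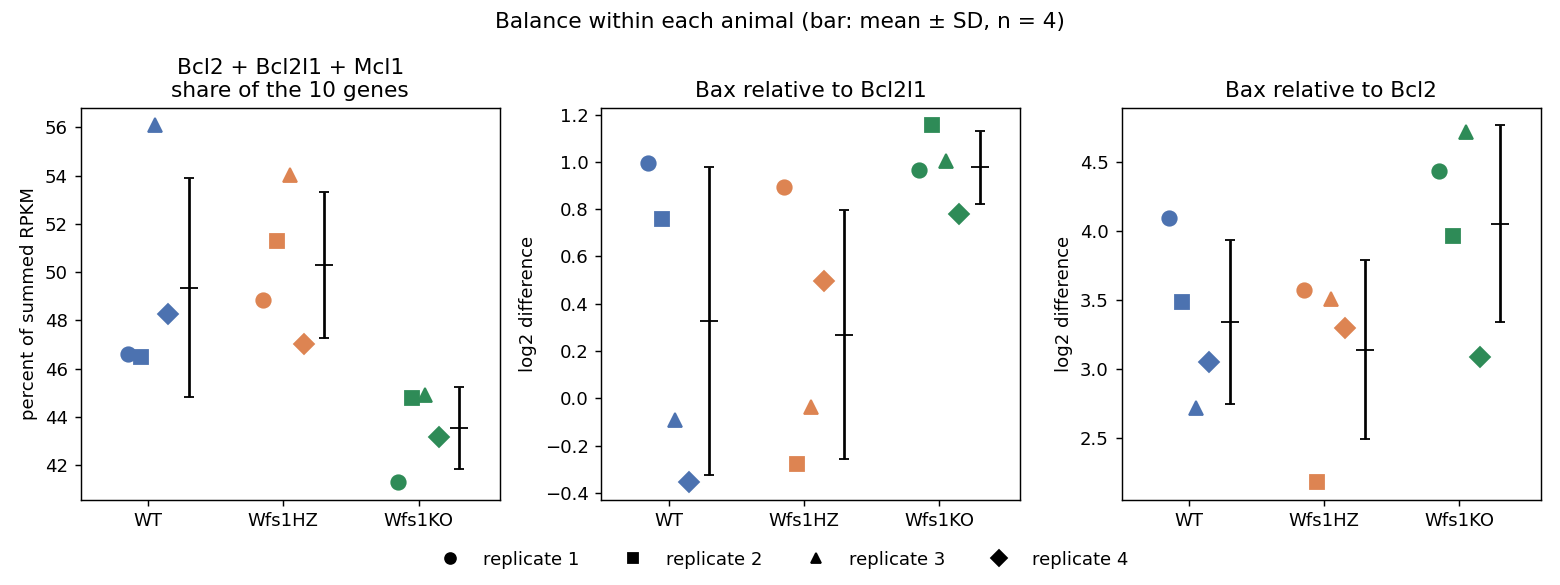
Share of the 3 survival genes in the summed RPKM of the 10 genes (left, percent) and the log2 difference of Bax and Bcl2l1 (middle) and of Bax and Bcl2 (right) in each animal, by genotype, with mean ± SD of 4 animals; axes do not start at 0. The 4 Wfs1KO shares, 41.3 to 44.9%, sit below all others, while both log2 differences overlap between genotypes.

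A further 15 genes of the family were measured. Bcl2l2, the survival gene encoding BCL-W, stood at 31.1 ± 5.46 RPKM over the 12 animals, above Bcl2l1 in mean level. Bnip3l and Bnip3, which act in mitophagy, were at 17.6 ± 4.66 and 12.5 ± 5.80 RPKM, Bcl2l13 at 10.1 ± 2.41, and the BH3-only gene Bmf at 5.44 ± 1.30. The blood cell survival genes Bcl2a1a, Bcl2a1b and Bcl2a1d were listed at 0 in 8, 6 and 7 animals. Of the 15, 10 were higher in Wfs1KO than in WT with a median log2 fold change of 0.07. Bok, a relative of Bax and Bak1, had the lowest p and stood at 3.60 ± 0.89 RPKM in Wfs1KO and 1.78 ± 0.95 in WT. Its log2 fold change was 1.10 (SE 0.42, limma unadjusted p = 0.028, adjusted p = 0.840), and the groups overlapped. It was the only gene of the 15 at an unadjusted p under 0.05, beside 5.64% of all transcripts. Against Wfs1HZ, Bnip3 averaged 14.7 ± 4.29 RPKM in Wfs1KO and 8.28 ± 0.76 in Wfs1HZ without overlap, but WT animals reached 26.4 RPKM. Of all transcripts 1.43% also separated these groups. No gene of the 15 had an adjusted p under 0.05 by limma in any comparison.

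Genes around the family were read from 7 further lists, and no gene of any list had an adjusted p under 0.05 by limma in any comparison. The caspase machinery downstream of the mitochondrion showed no common direction: 7 of 15 genes of the apoptosome and caspase list were higher in Wfs1KO than in WT, with a median log2 fold change of -0.01, none at an unadjusted p under 0.05. Mitochondrial partners were higher for 3 of 10 genes with a median of -0.17 and 0 at an unadjusted p under 0.05. Over all alternative settings 0 to 5 were higher, with medians of -0.30 to -0.03. The list had 1 of 10 higher in Wfs1HZ against WT (median -0.24) and 6 of 10 in Wfs1KO against Wfs1HZ (0.13). In Wfs1KO against WT, genes of MCL1 protein turnover were higher for 2 of 4 with -0.09 and also 0 at that threshold. Inhibitors of apoptosis were higher for 6 of 8 with 0.16 (0.053 without Wfs1KO replicate 2 and 0.28 without Wfs1KO replicate 4) and 1, Cflar. Transcription factors known to control BH3-only genes were higher for 6 of the 9 tested (of 10 listed) with a median of 0.26 and 1, Myc, at that threshold. That median moved with single animals, to 0.075 without Wfs1KO replicate 1, 0.085 without WT replicate 4, 0.14 without WT replicate 3, 0.16 without Wfs1KO replicate 2 and 0.38 without Wfs1KO replicate 3. Death receptors and ligands were higher for 9 of 9 with a median of 0.37, and 2 had an unadjusted p under 0.05. Among p53 target genes 11 of 12 were higher with a median of 0.49, the highest of these lists, and 4 had an unadjusted p under 0.05. Over all alternative settings the number higher was 9 to 11 for p53 targets and 7 to 9 for death receptor genes. Among all transcripts 5.64% had an unadjusted p under 0.05 in this comparison, 12553 of 21701 were higher and the median was 0.07. For Wfs1HZ against WT the p53 target median was 0.37 with 10 of 12 higher, but 0.054 with 7 of 12 without Wfs1HZ replicate 2 and 0.15 with sample weights. The median over all transcripts was 0.04, -0.19 and -0.03 in these fits. For Wfs1KO against Wfs1HZ the p53 target median was 0.23 with 8 of 12 (0.057 under quantile normalization and 0.47 without Wfs1HZ replicate 2). Over all transcripts it was 0.04, 0.02 and 0.28. Fas belongs to both of the last lists.

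**Figure D5:**
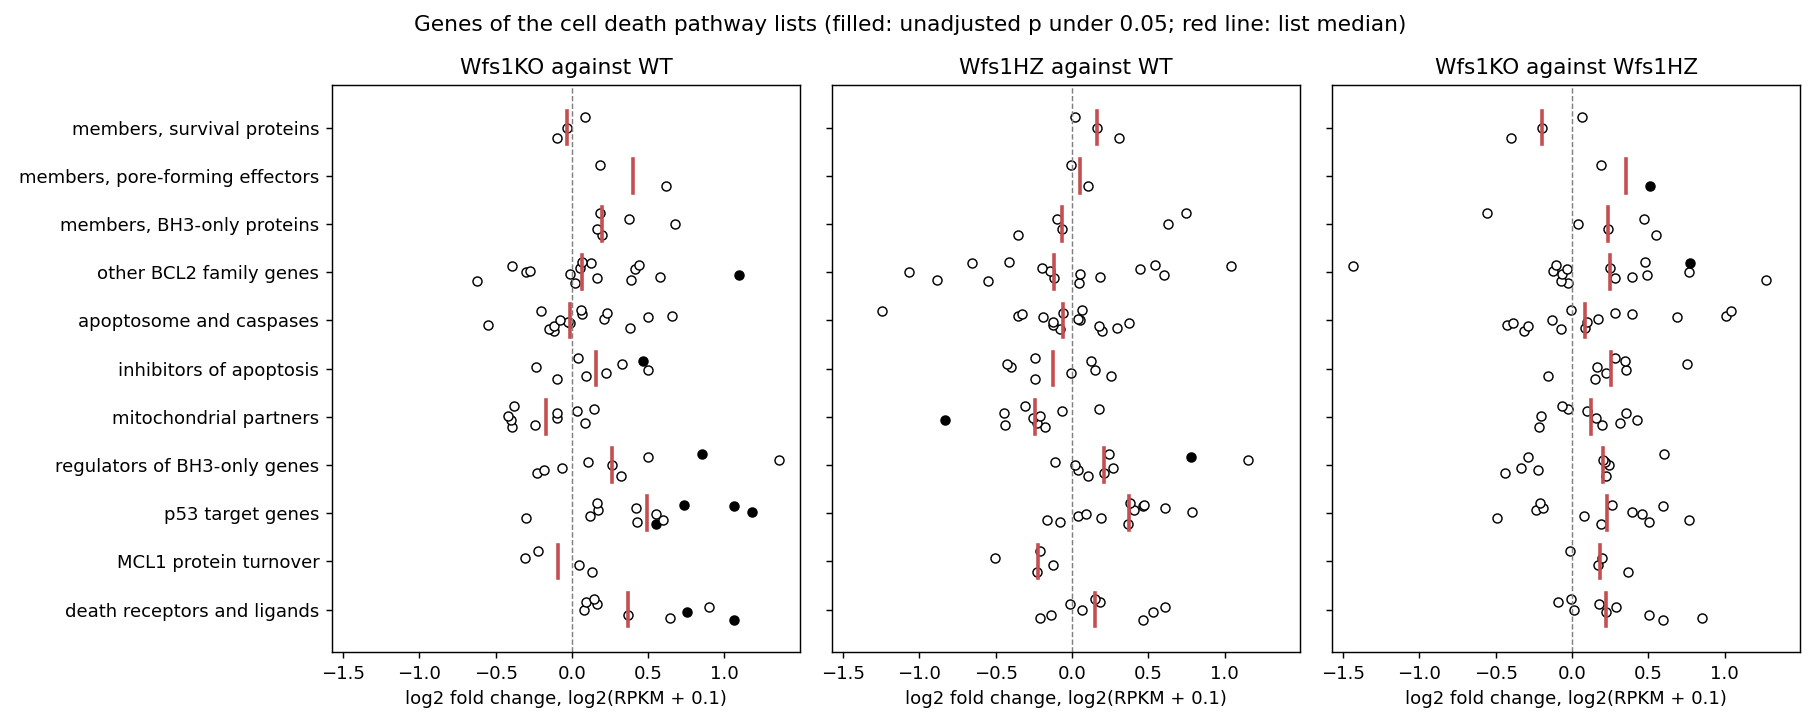
Log2 fold change on the log2(RPKM + 0.1) scale of each gene of the cell death lists in the 3 comparisons; filled points have a limma unadjusted p under 0.05 and the red line is the list median. In Wfs1KO against WT all 9 death receptor genes and 11 of 12 p53 target genes lie above 0, with medians of 0.37 and 0.49.

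Of the listed genes with an unadjusted p under 0.05, 5 separated Wfs1KO from WT animals, each with limma adjusted p = 0.835. Their exact two-sided permutation p = 0.029, the smallest possible, restates that separation. Among all transcripts 2.74% separated these groups, but the 5 had first been picked by p, so the comparison is not like for like. In the mitochondrial partners list 1 more gene separated the groups without an unadjusted p under 0.05. Fas, the receptor for FAS ligand, was 15.1, 13.0, 7.89 and 5.88 RPKM in Wfs1KO and 5.61, 4.02, 3.79 and 5.36 in WT, a log2 fold change of 1.06 (SE 0.32). Tnfrsf10b, the TRAIL receptor, was 18.7, 25.1, 16.9 and 13.8 RPKM against 9.08, 10.1, 13.7 and 10.6, a log2 fold change of 0.76 (SE 0.22). The lowest Wfs1KO animal of each gene cleared the highest WT animal by little. Myc averaged 41.9 ± 15.4 RPKM in Wfs1KO and 22.2 ± 2.80 in WT, and Cflar, whose protein blocks caspase 8, 20.6 ± 3.70 and 14.7 ± 0.63. Aen, a nuclease gene under p53, averaged 6.96 ± 1.24 and 4.17 ± 0.85 RPKM. Phlda3, a p53 target that restrains AKT, and Cdkn1a, which encodes the cell cycle inhibitor p21, overlapped between the groups, with 9.56 ± 3.63 against 4.26 ± 1.72 and 187.2 ± 21.6 against 130.2 ± 35.4 RPKM. Trp53 itself, the gene of p53, averaged 58.8 RPKM in Wfs1KO and 44.4 in WT, a log2 fold change of 0.32 (SE 0.28, limma unadjusted p = 0.269). In these same animals the endothelial and stromal marker sums were higher in all Wfs1KO than in all WT animals, and their part in these differences was not tested. In Wfs1HZ against WT, Mtch2, the mitochondrial receptor of BID, averaged 9.90 ± 3.83 against 16.8 ± 2.78 RPKM (log2 fold change -0.83). All 4 heterozygotes were below every WT animal, but the highest had 14.44 RPKM and the lowest WT animal 14.54. Of all transcripts 1.66% also separated these groups, and Mtch2 had first been picked by p. Jun was 57.9 ± 19.2 against 33.0 ± 10.7 RPKM with overlap. Neither gene passed the adjusted threshold.

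Across the 12 animals the 10 genes tended to be high or low in the same libraries. Of the 45 pairs of genes 36 had a Spearman rho of 0 or more, with a median of 0.30, the highest being 0.78 for Bcl2 and Bbc3 and the lowest -0.38 for Bak1 and Pmaip1. These points share libraries whose overall level differed, and rho with the median RPKM of all transcripts was 0.89 for Bbc3, 0.86 for Bcl2, 0.77 for Bad and 0.68 for Pmaip1, but 0.06 for Bid and -0.18 for Bak1. Among the 13356 transcripts that averaged 1 RPKM or more, the one most like each gene by rho over the 12 animals was Map3k4 for Bcl2 (0.986), Zfp777 for Bcl2l1 (0.930), Ppp4r2 for Mcl1 (0.965), 1810063B05Rik for Bax (0.965) and Znrd1 for Bak1 (0.860). For the BH3-only genes it was Madcam1 for Bid (0.930), Pigyl for Bad (0.958, with 1 tie), Hspa1b for Bbc3 (0.965), Cntn5 for Bcl2l11 (0.942) and Col15a1 for Pmaip1 (0.965, with 1 tie). Each was picked as the highest among 13356 transcripts over only 12 animals, so a high rho here is no evidence of shared control.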

How the data were processed

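Islet RNA of 12 mice was amplified from 10 ng of total RNA (Ovation RNA-Seq System V2) and sequenced on a SOLiD 5500xl (75 bp and 35 bp paired reads). The authors mapped reads to mm10 with LifeScope and deposited 1 table of RPKM per transcript and animal. The counter and its annotation are not given in the sources used here. As RPKM are not counts, the study's edgeR test was not repeated. limma 3.58.1 (R 4.3.3) with a variance trend was fitted to log2(RPKM + 0.1) for each pair of genotypes across the 21701 transcripts that averaged 0.1 RPKM or more, with Benjamini-Hochberg adjustment. Fold changes on this scale understate changes of low genes. The procedure was tested on simulated data, where few of the changed genes reached an adjusted p under 0.05 with 4 animals a genotype, so a missed adjusted threshold is weak evidence of no change. Depth was estimated from short RNA genes under 200 nt, whose low values were whole multiples of 1 read within 0.1 read in 96.7 to 100.0% of cases. It stands for the reads behind the RPKM and lies far below the reads per sample that the paper reports. Exact permutation tests were two-sided. Positions are from GENCODE M21 (mm10). No libraries held identical values. The genes, lists and markers were chosen with earlier results of these data known. All 10 genes are named, list genes by an unadjusted p under 0.05 (at most 12 for Wfs1KO against WT, 3 for each other comparison), and genes of similar pattern by the highest rho. Trp53 and further family members were named after their values were seen. As alternatives the pseudocount was set to 1 or 0.01, the filter dropped or raised, and the scaling changed (median-of-ratios, quantile). Further ones were a single fit of all 12 animals, sample weights, a replicate block and each animal left out.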

Additional observations from a re-analysis of the deposited data

Results flagged for a closer look

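Each of the 30 groups of 4 animals, 10 genes in 3 genotypes, was searched for an animal far from the other 3, by Dixon's 95% limit on the gap to the nearest animal over the group's range. On the log2(RPKM + 0.1) scale 1 group passed. Mcl1 in Wfs1KO replicate 1 was 56.0 RPKM, while the other 3 Wfs1KO animals lay between 62.04 and 62.87, a gap of 0.885 of the range (0.879 on the RPKM scale). The 56.0 RPKM lies inside the WT range. On the RPKM scale 3 groups passed, the others being Pmaip1 in Wfs1HZ replicate 2, with 17.19 RPKM (0.846), and in Wfs1KO replicate 4, with 8.28 RPKM (0.893). Chance passes this limit in about 1 of 20 groups.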

How the results depend on the processing

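Values are log2 fold changes unless said otherwise. Across 44 single-gene results, 9 alternatives (scaling, filter, pseudocount, model) and each of 8 animals left out in turn gave 748 values. Of these 704 kept their direction and 44 reversed, in 16 member results whose estimate was smaller than its SE. No member passed an adjusted p under 0.05 by limma under any alternative. In Wfs1KO against WT, Mcl1 turned to -0.0066 under quantile normalization and Pmaip1 to -0.15 with sample weights. In Wfs1HZ against WT, Bak1 turned to 0.0389 under median-of-ratios scaling, 0.0595 under quantile normalization and 0.0827 with sample weights, and Bad to 0.0041 with sample weights. In Wfs1KO against Wfs1HZ, Mcl1 turned to -0.0107, -0.14 and -0.10 under those 3 settings, and Bbc3 to -0.0058, -0.0081 and -0.17, and to -0.0818 with a pseudocount of 1. The unadjusted call of Bax there became 0 members with the filter raised to 1 RPKM, under either rescaling, with all 12 samples in a single fit and with the replicate block. Deviations of same-numbered animals had correlations of -0.17 to 0.23, which with 4 animals a genotype cannot decide whether the numbers mark a pairing. The block changed no other call of a member. It moved the transcripts at an unadjusted p under 0.05 from 511 to 854 in Wfs1HZ against WT. In Wfs1KO against WT they went from 1225 to 1091, and in Wfs1KO against Wfs1HZ from 532 to 395. Leaving out single animals gave 0 to 1 members at an unadjusted p under 0.05 in Wfs1KO against WT and 0 to 1 in Wfs1KO against Wfs1HZ. It also turned the direction of some estimates. In Wfs1KO against WT the ranges were Bcl2 -0.44 to 0.17, Bcl2l1 -0.12 to 0.0948, Mcl1 -0.0439 to 0.21 and Pmaip1 -0.45 to 0.51. In Wfs1HZ against WT they were Bcl2 -0.0088 to 0.49, Bcl2l1 -0.0132 to 0.38, Mcl1 -0.14 to 0.31, Bax -0.11 to 0.33, Bak1 -0.16 to 0.14, Bad -0.24 to 0.21, Bcl2l11 -0.36 to 0.19 and Pmaip1 -0.0479 to 1.23. In Wfs1KO against Wfs1HZ they were Mcl1 -0.22 to 0.23, Bad -0.0407 to 0.40, Bbc3 -0.67 to 0.64 and Pmaip1 -1.19 to 0.23. The causes were not tested. With 4 animals a genotype the 95% intervals were widest for the low genes Bbc3 and Pmaip1, and differences inside an interval are not excluded.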
